A study of Mus musculus with 6 samples.

Results

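Hypothalamus from mice in which Trsp had been deleted with RIP-Cre (Trsp-RIPKO, 2 arrays) was compared with hypothalamus from floxed control mice (TrspFF, 2 arrays) across all genes on the array. These 4 arrays, of 6 in the series, were chosen by the genotype names of the scanner files. TrspFF mice are TrspFlox/Flox without Cre, Trsp-RIPKO mice are TrspFlox/Flox::RIP-Cre, and the remaining 2 arrays come from TrspFlox/Flox::Ins1-Cre mice (Trsp-Ins1KO). All mice were C57BL/6J males aged 16 weeks and all carried the floxed alleles. The labels number the arrays of a genotype and do not say whether they come from separate animals, so a p-value here measures array-to-array spread, and that spread may be technical. No mice with RIP-Cre and unfloxed Trsp were analysed here, so an effect of the transgene and an effect of the deletion cannot be told apart. The deposited value table exchanges the knockout names: its columns labelled Trsp-RIPKO hold values of the scans labelled Trsp-Ins1KO, and its Trsp-Ins1KO columns those of Trsp-RIPKO (r of 0.99999751 or above with the matching scan over 39311 probes). Groups here follow the scanner files, and under the names of the value table each difference given for Trsp-RIPKO would belong to Trsp-Ins1KO.

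Trsp encodes the transfer RNA that inserts selenocysteine, the residue at the active site of selenoproteins such as the glutathione peroxidases and thioredoxin reductases, which reduce peroxides and oxidised proteins. RIP-Cre places the recombinase under a rat insulin promoter, which is active in pancreatic beta cells and in a part of the neurons of the hypothalamus, so that RNA of the whole tissue mixes cells with and without recombination. The series asks how oxidative stress in the hypothalamus bears on the action of leptin and insulin, hormones that arcuate neurons read to set food intake and energy use. In whole tissue, fewer cells of a type and less RNA per cell cannot be told apart.

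A level is the log2 processed signal of the brightest kept probe of a gene minus the 75th percentile of its array, so 0 lies at that percentile, and a difference is the Trsp-RIPKO mean minus the TrspFF mean on this log2 scale. Over the 6 arrays 68.9% to 72.0% of probes were well above background, and 0 spots were saturated. The TrspFF arrays had 202 and 183 flagged spots and the knockout arrays 222 to 244. The 75th percentile of the signal was 1391 and 1720 on the TrspFF arrays and 1736 to 2136 on the knockout arrays. The reference used to name the probes holds no entry called Trsp, so no probe could carry that name and the deletion itself was not checked. Both TrspFF arrays lie on 1 slide and scan and all 4 knockout arrays on another, so slide and genotype cannot be told apart in the comparison with TrspFF. Hcrt and Oxt, which mark hypothalamic neurons, were well above background on all 4 arrays. Hcrt, the orexin precursor of the lateral hypothalamus, lay at 4.12, 4.72 (TrspFF), 5.05 and 4.62 (Trsp-RIPKO), and Oxt, the oxytocin precursor, at 5.03, 4.65, 5.24 and 4.81. Of the transcription factors that define the paraventricular nucleus, Sim1 was well above background on neither Trsp-RIPKO array and Otp was not above background in any genotype.

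Trsp-RIPKO replicate 2 has a dim area. On it alone, 19 tested genes lay at background and at least 4 log2 below each of the other 5 arrays, against 0 such genes on Trsp-RIPKO replicate 1 and on each TrspFF array and 3 on each Trsp-Ins1KO array. The 19 spots all lie in rows 41 to 110 and columns 64 to 85 of the 532 rows and 85 columns of spots, an area with 3.44% of spots. Naa38, a subunit of an N-terminal acetyltransferase and named after its values were seen, lay at 3.76 and 3.63 in TrspFF and at 3.92 and -8.65 in Trsp-RIPKO, and Cacybp, a calcyclin-binding protein named likewise, at 2.94 and 2.83 against 2.82 and -8.61. None of the 19 passed the threshold used here, and leaving out all probes of the area gave 356 falls and 22 rises where all probes gave 357 and 22.

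Of 22863 genes tested, 357 fell and 22 rose in Trsp-RIPKO (limma on all 6 arrays, Benjamini-Hochberg adjusted p under 0.05), which is 1.56% and 0.0962% of genes and 1.66% in either direction. The levels of the groups did not overlap for any of these 379 genes, but 2 arrays against 2 leave 58.3% of all genes without overlap, 30.2% lower and 28% higher. An unadjusted p under 0.05 was reached by 24% of genes. Of the falls, 304 were well above background on all 4 arrays, and 36 had a signal well above background on neither Trsp-RIPKO array. The 36 were kept for their signal in another group, and they come from 212 genes measured on both TrspFF arrays and on neither Trsp-RIPKO array. The calls depend on the arrays in the fit. Without TrspFF replicate 1 there were 0 calls, as there were without replicate 2 of Trsp-RIPKO and without each Trsp-Ins1KO array. Without Trsp-RIPKO replicate 1, and likewise without TrspFF replicate 2, the set of genes past the threshold changed. In both of these fits most of the 379 genes were no longer past it.

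**Figure D1:**
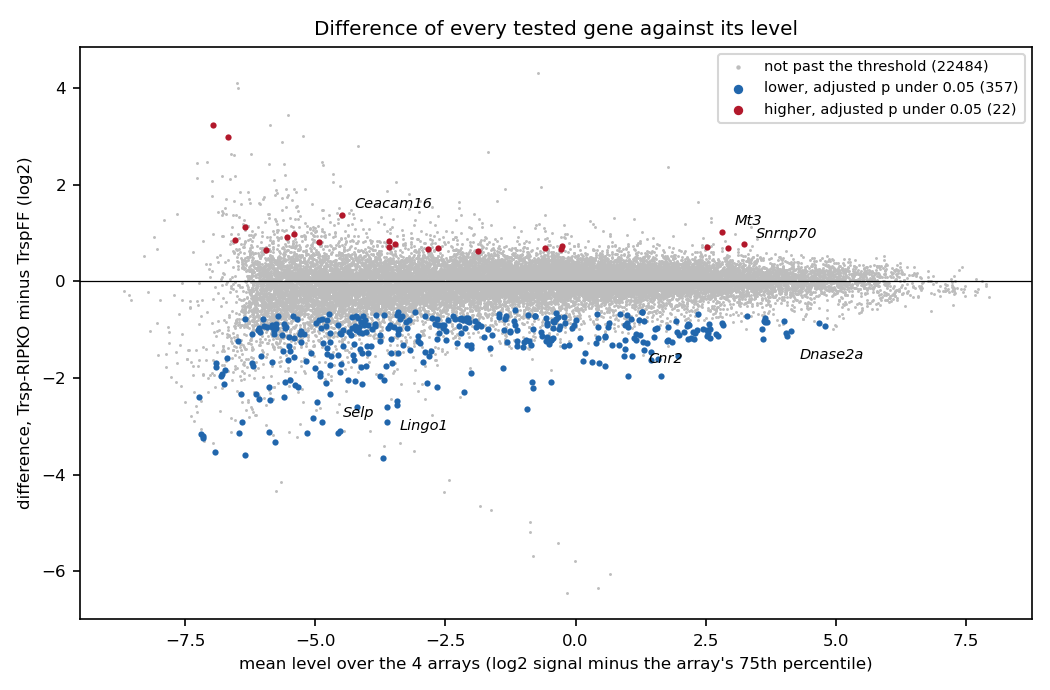
The vertical axis gives the difference, Trsp-RIPKO minus TrspFF (log2), and the horizontal axis the mean level over the 4 arrays (log2) of all 22863 tested genes, with 357 falls and 22 rises past the adjusted p of 0.05 in colour. Falls past the threshold occur at all levels, and the genes with differences below -4 at high levels are grey, as for Naa38, which was low on Trsp-RIPKO replicate 2 alone.

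The falls were concentrated in transcripts without a gene symbol. Of 623 tested probes known only by a probe name 60 fell (9.63%), as did 27 of 389 with an NAP accession (6.94%) and 91 of 2630 with a predicted XM accession and no symbol (3.46%). Of 14819 protein-coding genes with a usual symbol, 100 fell (0.67%) and 15 rose (0.10%). The share that fell was 2.45% in the lowest quartile of level and 1.01% in the highest. The largest fall without a symbol was the probe A_66_P102163, at -1.83 and -1.90 in TrspFF and -5.56 and -5.48 in Trsp-RIPKO (difference -3.66, SE 0.16, adjusted p = 0.014). Other probes of the same genes mostly gave smaller values: 33 genes past the threshold had 38 further kept probes, of which 22 moved in the same direction (57.9%), against 56.5% over all 5202 further probes of tested genes. The median of the 38 in the direction of the call was 0.28, where the tested probes of the same genes had a median of 0.90.

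Among falls with a usual symbol, the 3 largest measured on all 4 arrays were those of Lingo1, Slc51b and Selp. Lingo1, a receptor component that restrains axon growth and myelination, lay at -2.49 and -2.15 in TrspFF and at -5.02 and -4.83 in Trsp-RIPKO (difference -2.61, SE 0.15). Selp, the P-selectin that endothelium and platelets display to bind leukocytes, lay at -3.56 and -3.53 against -5.86 and -5.89 (-2.33, SE 0.08). Slc51b, a subunit of a bile acid and steroid exporter, lay at -2.20 and -2.10 against -4.60 and -4.81 (-2.56, SE 0.12). In these 3 genes the fall was many times the gap between the arrays of a group (adjusted p of 0.014 to 0.017). In the same genes Trsp-Ins1KO lay between -5.84 and -4.27, and the contrast between the knockouts did not pass the threshold for any of them (adjusted p of 0.26 to 0.63).

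The next falls in size were in genes of varied function. Ndfip2, an adaptor of NEDD4 ubiquitin ligases, fell by 1.76 (SE 0.21) and Uchl3, a ubiquitin hydrolase, by 1.62 (SE 0.15). Tpst1, which sulfates tyrosines of secreted proteins, had levels of -2.67 and -2.68 in TrspFF and -4.33 and -4.40 in Trsp-RIPKO. The cation channel gene Trpc7 fell by 1.57 (SE 0.14), the zinc-finger gene Zfp788 by 1.96 (SE 0.23), and the olfactory receptor gene Olfr715b by 2.13 (SE 0.23). For Rap1a, a small GTPase of adhesion signalling, 1 of the 2 Trsp-RIPKO arrays was well above background (-3.49 and -3.94 against -6.34 and -6.09). These 7 genes passed with adjusted p of 0.014 to 0.050. Their groups did not overlap, as for all 379 genes past the threshold and for 58.3% of all genes tested.

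In a further group neither Trsp-RIPKO array gave a signal well above background for the tested probe, so the fold is a bound against the faintest signal called above background there. Pgc, a pepsinogen, was at least 4.17-fold lower, Serpinb1c, a leukocyte elastase inhibitor relative, at least 3.18-fold, Adam24, a testis metalloprotease, at least 2.85-fold, and Adh4, an alcohol dehydrogenase, at least 2.47-fold. Smg8, a regulator of nonsense-mediated decay, was at least 2.28-fold lower, Dppa4, a chromatin protein of pluripotent cells, at least 2.22-fold, Cdh17, a gut cadherin, at least 1.88-fold, Lilra5, a myeloid receptor, at least 1.79-fold, Cbx7, a Polycomb protein, at least 1.71-fold, and Ido1, which degrades tryptophan, at least 1.54-fold. The adjusted p of their fitted differences ran from 0.014 to 0.050, but these fits use Trsp-RIPKO signals that were not well above background. The probes were kept for their signal in another group. Of the 212 genes measured on both TrspFF arrays and on neither Trsp-RIPKO array 17.0% fell, beside 1.41% of genes measured on all 4. The bound for Pgc holds for its tested probe, at -4.21 and -4.60 in TrspFF. Its other kept probe was well above background on all 4 arrays, at -5.45 and -5.13 against -5.88 and -5.84, a difference of -0.57.

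The brightest genes past the threshold showed smaller differences between tight replicates. Dnase2a, a lysosomal nuclease, lay at 4.64 and 4.62 in TrspFF and at 3.61 and 3.40 in Trsp-RIPKO (-1.12, SE 0.15, adjusted p = 0.044). Rps21, a protein of the small ribosomal subunit, lay at 4.32 and 4.07 against 3.05 and 2.97 (-1.19, SE 0.13, adjusted p = 0.034). Cnr2, the cannabinoid receptor of immune cells, lay at 1.77 and 1.74 against 0.62 and 0.48 (-1.21, SE 0.11, adjusted p = 0.024), and Ppp5c, a phosphatase bound to HSP90, at 1.54 and 1.41 against 0.54 and 0.54 (-0.94, SE 0.09). The oviduct glycoprotein gene Ovgp1 fell by 0.80 (SE 0.11) and Plaat3, a phospholipase, by 0.62 (SE 0.08). Rdx, a linker of membrane and actin, fell by 0.70 (SE 0.09) on its tested probe while its other probe was 0.18 higher, and Lst1, a leukocyte gene, fell by 0.64 (SE 0.08) while its other probe was 0.46 higher.

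The rises were smaller than the falls, and 5 of the 22 reached 1 log2. Ceacam16, an adhesion protein known from the inner ear, lay at -5.05 and -5.30 in TrspFF, -3.96 and -3.62 in Trsp-RIPKO and -5.48 and -5.63 in Trsp-Ins1KO (difference from TrspFF 1.39, SE 0.16, adjusted p = 0.037). Snrnp70, which helps the U1 snRNP recognise splice sites, lay at 2.77 and 2.92 against 3.57 and 3.66 (0.77, SE 0.10), and Palm, a membrane-bound phosphoprotein of neurites, at 2.59 and 2.57 against 3.28 and 3.27 (0.69, SE 0.08). Fxyd7, a brain regulator of the sodium pump, lay at -0.96 and -0.91 against -0.28 and -0.18 (0.70, SE 0.08). Tob2, an antiproliferative adaptor of mRNA deadenylation, rose by 0.73 (SE 0.08), Mpp2, a synaptic scaffold, by 0.66 (SE 0.09), Tkfc, a kinase of fructose metabolism, by 0.64 (SE 0.09), Pald1, a phosphatase-like protein, by 0.70 (SE 0.09), Cenpi, of the centromere, by 0.99 (SE 0.12), and C2cd4d by 0.81 (SE 0.09), with adjusted p of 0.0329 to 0.0495 over these 10 genes. Cabin1, an inhibitor of calcineurin, rose by 0.67 (SE 0.09) on its tested probe, and its other probe was 0.61 lower. Ciita, the activator of MHC class II genes, and Plekhn1 had signals well above background on neither TrspFF array, and were at least 1.54-fold and 1.11-fold higher.

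**Figure D2:**
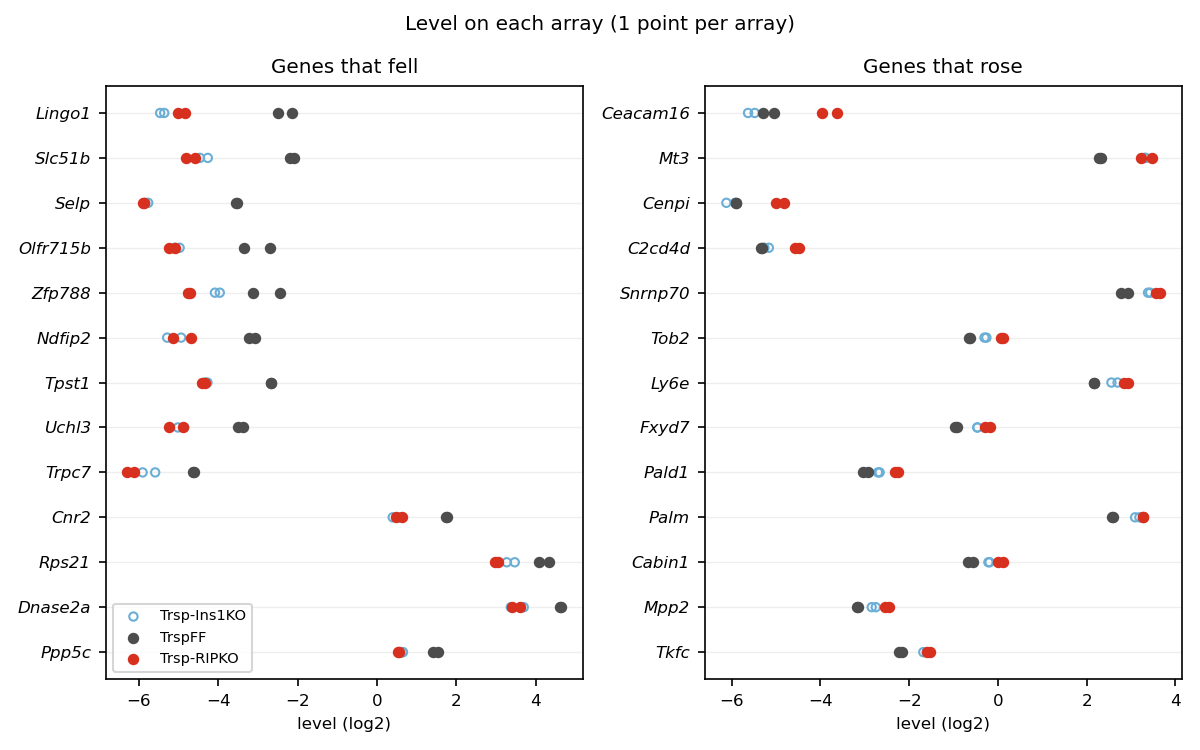
The horizontal axis gives the level (log2) on each array, 1 point per array, for 13 genes that fell and 13 that rose past the adjusted p of 0.05, with TrspFF in grey, Trsp-RIPKO in red and Trsp-Ins1KO as open blue circles. In every gene shown the red and grey points do not overlap, as for Lingo1 at -5.02 and -4.83 against -2.49 and -2.15. The same holds for all 379 genes past the threshold and for 58.3% of all genes tested.

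Small families or complexes were drawn up around 16 of the genes past the threshold. No further member passed in any of them, and with 1.66% of all genes past the threshold few would, so the count is no result about relatives. Of 12 genes of the LINGO and Nogo receptor complex, Lingo1 fell, and the others ran from -0.22 for Rtn4rl2, a Nogo receptor relative, to 0.43 for Mag, a myelin ligand of the receptor. Of 12 Rap and Ras GTPases and regulators, Rap1a fell, while Rap1b, its closest relative, had a difference of -0.14 (SE 0.08). Of 10 nonsense-mediated decay genes, Smg8 fell and the other 9 were positive, up to 0.33 for Upf3a, an exon-junction factor. Of 16 spliceosomal proteins Snrnp70 rose, and Snrpa, its partner in the U1 particle, had a difference of 0.35 (SE 0.09, adjusted p = 0.12). Of 7 leukocyte adhesion genes Selp fell, and the endothelial adhesion molecule Vcam1 had a difference of 0.06 (SE 0.14).

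None of the 23 selenoprotein transcripts tested passed the threshold, beside 1.66% of all genes, and Dio3, the deiodinase that inactivates thyroid hormone, was not above background. The median difference of the 23 was 0.08 against -0.01 for all genes, and 16 were positive and 7 negative on their tested probes. The other kept probes of Dio1, Selenon and Selenot had the opposite sign to the tested ones. Without overlap, 11 lay on the higher and 4 on the lower side, beside 28% and 30.2% of all genes. Of the glutathione peroxidases, Gpx2 lay at -0.94 and -1.02 in TrspFF and -0.61 and -0.58 in Trsp-RIPKO (0.38, SE 0.08, adjusted p = 0.096). The widely expressed Gpx1 differed by 0.11 (SE 0.09) and Gpx4, which protects membrane lipids, by 0.08 (SE 0.08). Of the thioredoxin reductases, cytosolic Txnrd1 differed by 0.22 (SE 0.12), mitochondrial Txnrd2 by -0.10 (SE 0.11) and Txnrd3 by -0.29 (SE 0.11).

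Among the other selenoproteins, Selenop, the carrier that brings selenium to the brain, lay at 4.83 and 4.53 against 4.32 and 4.198 (-0.42, SE 0.13, adjusted p = 0.16). Selenow, a small redox protein abundant in brain and muscle, lay at 5.05 and 5.08 against 5.61 and 5.33 (0.40, SE 0.14, adjusted p = 0.18). Selenov lay at -0.08 and -0.54 against -0.88 and -1.09 (-0.67, SE 0.20) and had the largest difference of the list. Of 6 selenoproteins of the endoplasmic reticulum, 5 were positive on their tested probes, led by Selenos, a factor of protein retrotranslocation (0.25, SE 0.09). Selenon differed by 0.07 on its tested probe and by -0.61 on its other kept probe, and Selenot by 0.09 and -0.37. Selenok differed by 0.19 and 0.07. For Selenop, Selenow, Selenov and Selenos the groups did not overlap, as for 58.3% of all genes, while of the 6 endoplasmic reticulum members 3 lay higher and 1 lower without overlap.

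The genes that make and insert selenocysteine were also without a call, 0 of 14, beside 1.66% of all genes. All 5 genes of selenocysteine synthesis were positive, among them Pstk, the kinase that prepares the charged transfer RNA (0.23, SE 0.09, adjusted p = 0.21). The insertion factors had the lowest and the highest differences of the list. Secisbp2l, a relative of the protein that binds the insertion element of selenoprotein mRNAs, lay at -1.29 and -1.24 in TrspFF and -2.20 and -2.62 in Trsp-RIPKO (-1.15, SE 0.16, adjusted p = 0.051). Eefsec, the elongation factor for selenocysteine, lay at -0.70 and -0.71 against -0.24 and -0.20 (0.49, SE 0.09, adjusted p = 0.072). Secisbp2 itself differed by -0.21 (SE 0.12).

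**Figure D3:**
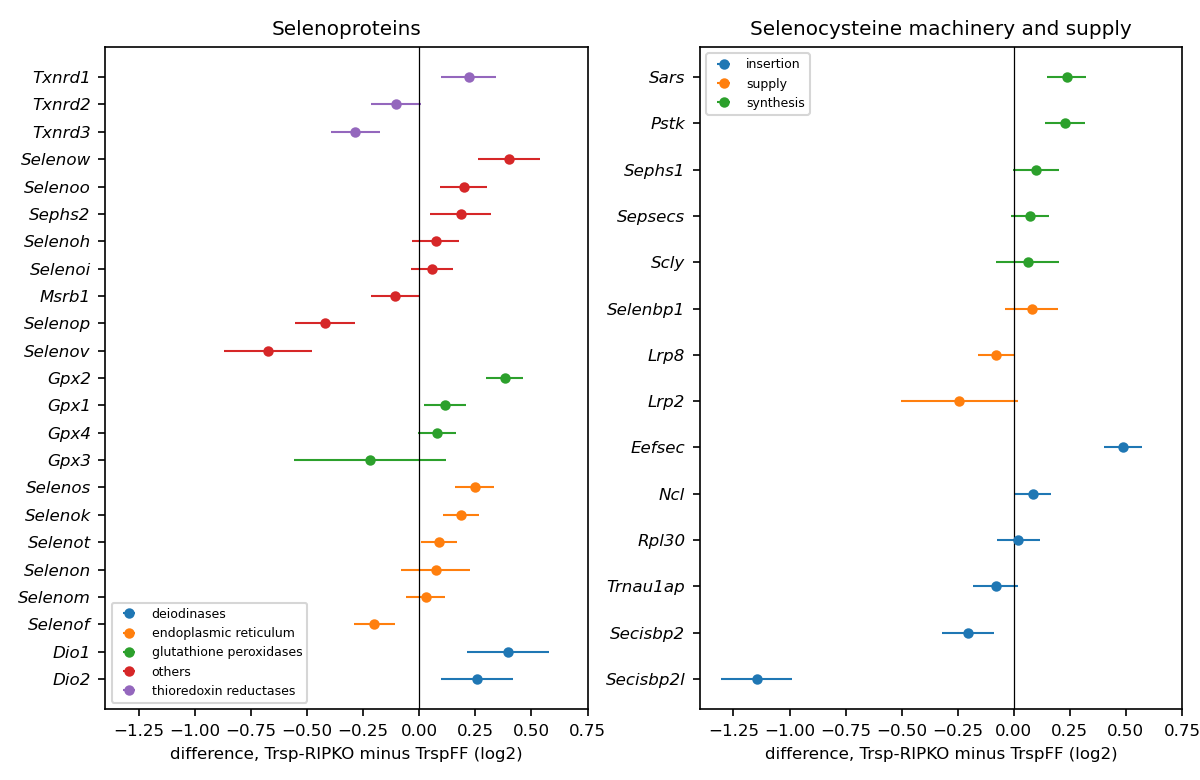
The horizontal axis gives the difference, Trsp-RIPKO minus TrspFF (log2), and its standard error for 23 selenoproteins and 14 genes of selenocysteine synthesis, insertion and selenium supply, coloured by role. Most points lie near 0, with Secisbp2l at -1.15 and Selenov at -0.67 the lowest and Eefsec at 0.49 the highest, and no gene shown passed the threshold.

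Metallothioneins are small cysteine-rich proteins that bind zinc and copper and scavenge oxidants. Of the 4 tested, 1 passed, beside 1.66% of all genes. This was Mt3, the form enriched in brain, at 2.28 and 2.33 in TrspFF, 3.22 and 3.46 in Trsp-RIPKO and 3.33 and 3.31 in Trsp-Ins1KO (1.03, SE 0.11, adjusted p = 0.033). The widely inducible Mt2 lay at 5.39 and 5.48 against 5.70 and 5.76 (0.30, SE 0.11, adjusted p = 0.20) and Mt1 at 6.10 and 5.93 against 6.21 and 6.12 (0.15, SE 0.10). Mt4, known from stratified epithelia, lay at -5.21 and -5.27 against -5.93 and -6.08 (-0.76, SE 0.12, adjusted p = 0.062).

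The 250 bases before the start of Mt3 and of its neighbours Mt1 and Mt2 are shown because the 3 genes lie together on chromosome 8 and only Mt3 passed the threshold. They are on the plus strand, from RefSeq on GRCm38.p6, with matches on either strand to the metal response element (searched as TGCACNC or TGCGCNC) in capitals. The windows are chr8:94152357-94152606 (Mt3), chr8:94178839-94179088 (Mt1) and chr8:94172368-94172617 (Mt2).
Mt3: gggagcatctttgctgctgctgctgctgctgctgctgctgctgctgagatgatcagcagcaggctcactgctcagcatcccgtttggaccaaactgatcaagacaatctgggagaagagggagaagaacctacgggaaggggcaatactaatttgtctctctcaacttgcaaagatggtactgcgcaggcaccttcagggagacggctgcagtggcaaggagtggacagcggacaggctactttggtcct
Mt1: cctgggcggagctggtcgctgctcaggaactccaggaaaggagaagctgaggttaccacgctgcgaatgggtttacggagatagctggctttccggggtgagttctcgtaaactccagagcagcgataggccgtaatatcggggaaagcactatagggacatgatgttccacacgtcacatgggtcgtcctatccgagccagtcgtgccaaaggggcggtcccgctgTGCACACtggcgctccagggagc
Mt2: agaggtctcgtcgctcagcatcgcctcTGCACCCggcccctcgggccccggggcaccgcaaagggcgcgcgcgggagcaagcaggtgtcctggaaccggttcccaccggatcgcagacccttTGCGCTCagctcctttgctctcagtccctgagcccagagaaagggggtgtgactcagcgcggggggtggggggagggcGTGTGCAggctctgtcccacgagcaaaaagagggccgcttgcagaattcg
The window of Mt1 holds 1 match, that of Mt2 3 and that of Mt3 0, and 21.4% of 32851 such windows hold at least 1. The window of Mt4, also on chromosome 8 and not printed, holds 1 match. No match says only that these letters are absent from the window.

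None of 33 genes of the NRF2 pathway passed the threshold, beside 1.66% of all genes. NRF2 is the transcription factor that induces glutathione and detoxifying enzymes under oxidative stress. The median of the list was -0.07, with 21 negative and 12 positive members. Without overlap, 12 lay lower and 6 higher, beside 30.2% and 28% of all genes. Akr1b8, an aldo-keto reductase, lay at 0.03 and -0.37 in TrspFF and -1.21 and -1.22 in Trsp-RIPKO (-1.04, SE 0.15, adjusted p = 0.053). Gclm, the regulatory subunit of the enzyme that starts glutathione synthesis, lay at -1.28 and -1.33 against -1.91 and -1.80 (-0.54, SE 0.09, adjusted p = 0.068). Keap1, which marks NRF2 for degradation, lay at 1.97 and 1.99 against 1.62 and 1.57 (-0.38, SE 0.08, adjusted p = 0.087), and the transcript of NRF2, Nfe2l2, differed by -0.21 (SE 0.12). The glutathione transferase Gstm6 was the highest member (0.51, SE 0.13), and the classical targets Nqo1 and Hmox1 differed by 0.28 (SE 0.18) and 0.09 (SE 0.12). Of 25 antioxidant enzymes without selenium, 0 passed and the median was 0.01.

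Of 34 insulin signalling genes 1 passed, which is near the 1.66% of all genes. Rheb, the GTPase that switches on mTORC1, lay at 1.23 and 1.17 in TrspFF, 0.52 and 0.52 in Trsp-RIPKO and 0.74 and 0.73 in Trsp-Ins1KO (-0.68, SE 0.08, adjusted p = 0.037). Its next probe lay at 0.79 and 0.73 against 0.03 and -0.05 (difference -0.77). Another probe had a difference of -0.73, but its TrspFF arrays lay apart, at -3.50 and -5.29, around the Trsp-RIPKO levels of -5.24 and -5.00. Pik3ca, the catalytic subunit of phosphoinositide 3-kinase, lay at -1.48 and -1.395 against -2.49 and -2.24 (-0.93, SE 0.13, adjusted p = 0.053). The receptor gene Insr lay at -1.97 and -1.65 against -1.55 and -1.38 (0.34, SE 0.14, adjusted p = 0.22), while its other 2 kept probes had differences of -0.19 and -0.12. The median of the list was -0.0022.

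Of 15 leptin signalling genes, 0 passed, beside 1.66% of all genes. Lepr, the leptin receptor, lay at -0.01 and -0.46 in TrspFF and -0.75 and -0.98 in Trsp-RIPKO (-0.63, SE 0.19, adjusted p = 0.15). Socs3, the feedback inhibitor of the receptor, lay at -2.16 and -2.22 against -1.86 and -1.77 (0.38, SE 0.11, adjusted p = 0.14), and Ptpn1, a phosphatase that also restrains it, differed by 0.16 (SE 0.10). Stat3, which carries the leptin signal to the nucleus, differed by 0.14 (SE 0.13). On the tested probes of Lepr, Socs3 and Ptpn1 the groups did not overlap, as for 58.3% of all genes, while for Stat3 they overlapped. The other kept probe of Ptpn1 had a difference of -0.06 and that of Stat3 one of -0.16. The other 2 kept probes of Lepr had differences of -0.02 and -0.24, with overlapping groups.

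None of 19 feeding and energy-balance neuropeptides passed, beside 1.66% of all genes. Pmch, the melanin-concentrating hormone precursor of the lateral hypothalamus, which promotes feeding, lay at 4.48 and 4.38 in TrspFF, 3.77 and 3.34 in Trsp-RIPKO and 4.78 and 4.83 in Trsp-Ins1KO (-0.88, SE 0.16, adjusted p = 0.078). Pomc, the precursor of the satiety peptide alpha-MSH, lay at 0.85 and 0.75 against 1.57 and 1.62 (0.79, SE 0.20, adjusted p = 0.12). The hunger peptides Agrp and Npy differed by 0.55 (SE 0.24) and 0.94 (SE 0.36), with Npy at -0.18 and 0.57 against 1.01 and 1.26. Adcyap1, the PACAP precursor of ventromedial neurons, lay at 0.42 and 0.24 against 0.96 and 1.17 (0.73, SE 0.14, adjusted p = 0.083). Pcsk2, a convertase that processes peptide precursors, differed by 0.49 (SE 0.08, adjusted p = 0.069) on its tested probe and by -0.06, with overlapping groups, on its other probe. The melanocortin receptor gene Mc4r differed by -0.05 (SE 0.24).

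The interferon response list held 1 rise and 1 fall past the threshold among 26 genes tested, beside 0.0962% and 1.56% of all genes. Ly6e, an interferon-induced surface protein that limits virus entry, lay at 2.16 and 2.17 in TrspFF and 2.84 and 2.92 in Trsp-RIPKO (0.72, SE 0.09, adjusted p = 0.043). Iigp1, an immunity-related GTPase, lay at -1.32 and -1.08 against -2.24 and -2.44 (-1.14, SE 0.15, adjusted p = 0.0495), while its other probe, with no TrspFF signal well above background, was 1.51 higher. Of the 26 genes, 25 were positive and 20 lay higher without overlap, beside 28% of all genes, and the median was 0.48. Isg15, a ubiquitin-like modifier, lay at -1.08, -0.66, -0.37 and 0.12 (0.75, SE 0.22, adjusted p = 0.14), Irf7, an interferon regulatory factor, at -5.79, -5.52, -5.26 and -4.76 (0.65, SE 0.20), and the chemokine gene Cxcl10 at -4.71, -4.33, -3.74 and -3.13 (1.08, SE 0.25, adjusted p = 0.10). Over the list the mean level was -2.62 and -2.19 in TrspFF and -2.07 and -1.66 in Trsp-RIPKO, so that TrspFF replicate 2 and Trsp-RIPKO replicate 1 lay nearer to each other than the arrays of either group did.

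The 250 bases before Isg15 and Cxcl10 (minus strand, printed 5′ to 3′) and Ifit1 (plus strand) are shown because they hold the element through which interferon acts on these genes in textbook accounts. Capitals mark matches on either strand to the interferon-stimulated response element, searched as 2 copies of GAAA with any 2 bases between them, in RefSeq sequence of GRCm38.p6. The windows are chr4:156200819-156201068 (Isg15), chr5:92348890-92349139 (Cxcl10) and chr19:34640639-34640888 (Ifit1).
Isg15: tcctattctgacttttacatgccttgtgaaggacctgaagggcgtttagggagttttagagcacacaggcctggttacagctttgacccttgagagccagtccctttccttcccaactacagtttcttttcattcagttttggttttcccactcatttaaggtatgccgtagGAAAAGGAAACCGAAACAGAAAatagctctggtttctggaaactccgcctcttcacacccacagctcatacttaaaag
Cxcl10: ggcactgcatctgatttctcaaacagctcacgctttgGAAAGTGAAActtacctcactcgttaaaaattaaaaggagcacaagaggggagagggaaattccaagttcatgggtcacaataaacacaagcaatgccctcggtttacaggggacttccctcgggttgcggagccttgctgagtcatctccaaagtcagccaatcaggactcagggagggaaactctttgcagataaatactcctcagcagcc
Ifit1: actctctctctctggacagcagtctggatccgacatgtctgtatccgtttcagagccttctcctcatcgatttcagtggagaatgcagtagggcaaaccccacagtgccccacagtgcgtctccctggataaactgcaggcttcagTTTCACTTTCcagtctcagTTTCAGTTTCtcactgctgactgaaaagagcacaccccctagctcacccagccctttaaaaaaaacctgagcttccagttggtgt
Isg15 holds 3 overlapping matches, Cxcl10 1 and Ifit1 2. Of the 26 interferon list genes 19 had a window in the RefSeq table, and 10 of these held a match in any of their windows. Of 32851 single windows, 2.98% held a match. The list was drawn up from interferon response genes, so the gap between these shares is no result of these arrays. The windows of Irf7 and Ifit2 held 0 matches. The median difference was 0.65 for the 10 list genes with a match and 0.37 for the 9 without, and the gap between these medians was not tested.

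Genes of neuronal activity and stress gave 0 calls, beside 1.66% of all genes. Of 21 immediate early genes 18 were positive, with a median of 0.30. Jund, an AP-1 subunit, lay at 3.36 and 3.21 against 3.84 and 3.74 (0.51, SE 0.11, adjusted p = 0.090), and Npas4, a factor induced by neuronal firing, at -0.42 and 0.41 against 1.17 and 0.92 (1.05, SE 0.38). Among 18 heat shock genes the median was 0.03, and Hsph1, a partner of HSP70, lay at 3.55 and 3.56 against 4.10 and 4.16 (0.57, SE 0.08, adjusted p = 0.055). Among 26 genes of the unfolded protein and integrated stress response the median was 0.05, and the sensor gene Atf6 lay at -1.86 and -1.62 against -1.17 and -1.12 (0.59, SE 0.11, adjusted p = 0.077). The 46 respiratory chain and ATP synthase genes had a median of -0.08 and a range of -0.37 to 0.38, and the 31 proteasome genes a median of 0.02.

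**Figure D4:**
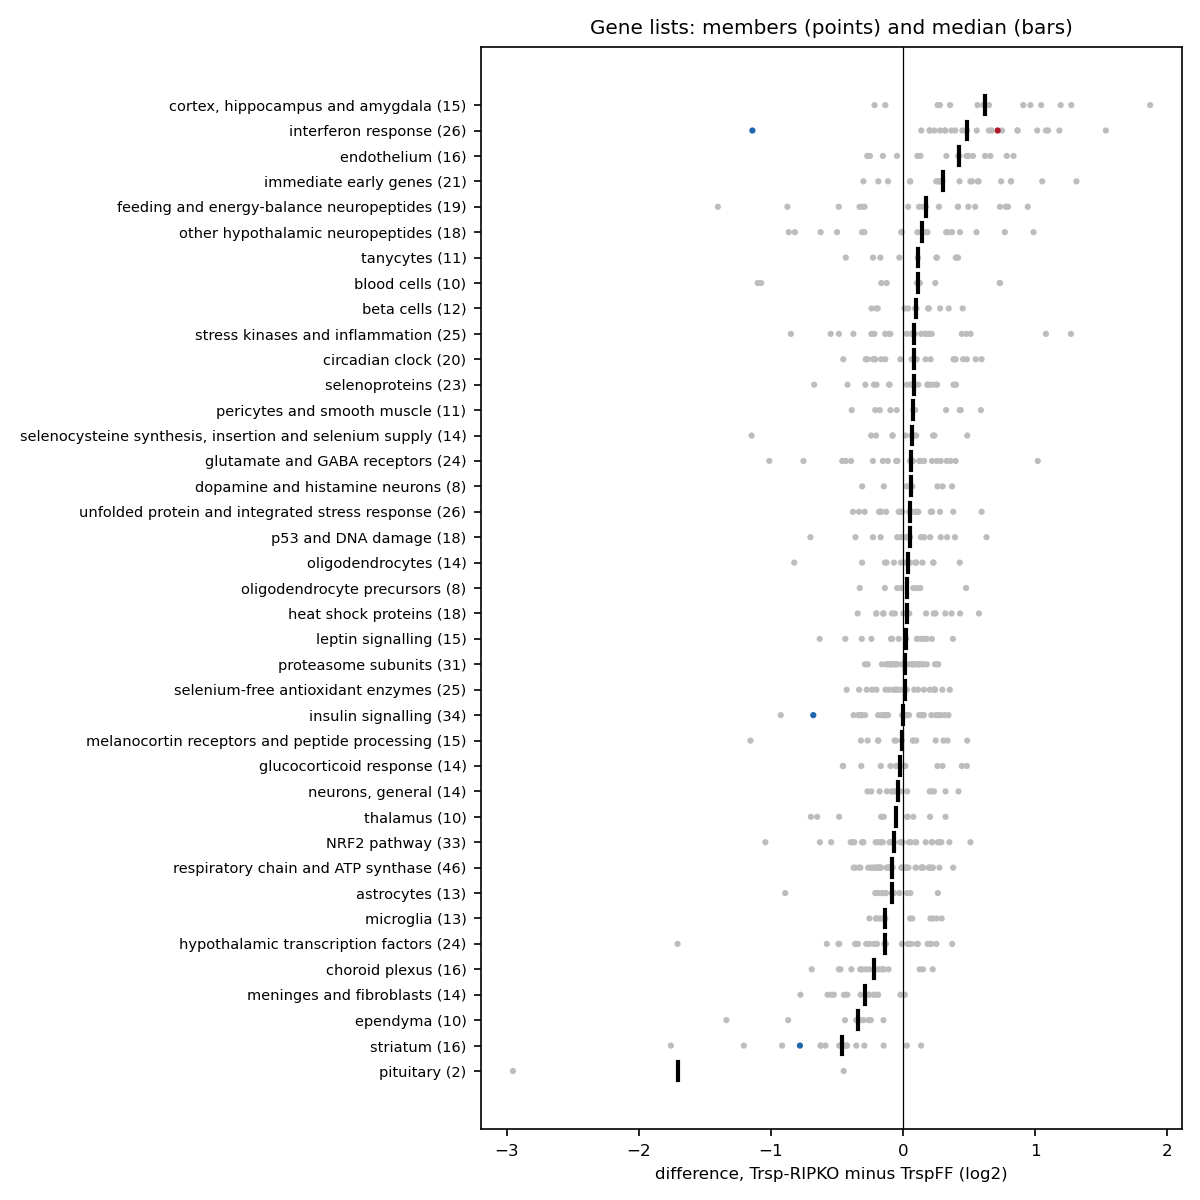
Each row is a gene list with its number of tested members in brackets, the horizontal axis gives the difference, Trsp-RIPKO minus TrspFF (log2), points are members and black bars list medians, and members past the threshold are blue (lower) or red (higher). Medians run from -0.46 for striatum genes (and -1.70 for a pituitary list of 2 genes) to 0.62 for cortex, hippocampus and amygdala, and coloured points stand in the interferon, insulin and striatum lists.

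Marker lists of the cells and neighbouring tissues that a dissected hypothalamus can hold differed between the groups, and their part in the other results was not tested. Of 16 striatum genes 14 were negative and 13 lay lower without overlap, beside 30.2% of all genes, and the median was -0.46. Gpr6, a receptor of striatal neurons, fell (-1.90 and -1.94 against -2.69 and -2.70, difference -0.78, SE 0.08, adjusted p = 0.029). The adenosine receptor gene Adora2a lay at -2.45 and -1.59 against -3.75 and -3.81 (-1.76, SE 0.29, adjusted p = 0.064), the dopamine receptor gene Drd1 at -2.67 and -2.02 against -3.23 and -3.29, and the opioid precursor Penk at 3.22 and 3.59 against 2.86 and 2.70. The mean level of the list was 0.21 and 0.43 in TrspFF and -0.19 and -0.28 in Trsp-RIPKO.

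In other lists arrays of the same group lay further apart. For 15 cortex, hippocampus and amygdala genes the mean level was -1.70 and -0.93 in TrspFF and -0.69 and -0.58 in Trsp-RIPKO. The median difference was 0.62, with 13 positive, and 0 of 15 were called, beside 1.66% of all genes. Of the 15, 12 lay higher and 1 lower without overlap, beside 28% and 30.2% of all genes. The synaptic gene Nrgn lay at 1.03 and 1.98 against 2.71 and 2.69. For 16 endothelial genes the means were -0.68, -0.29, -0.19 and -0.14 (0 called, median 0.42, 12 positive), and 10 lay higher and 1 lower without overlap. Slco1a4, a transporter of the blood-brain barrier, lay at -1.29 and -0.56 against -0.12 and -0.05. In the other direction, all 10 ependymal genes were negative (median -0.34, means -0.56, -1.28, -1.80 and -0.97), and 13 of 14 meningeal genes were (median -0.29). Without Trsp-RIPKO replicate 1 the ependymal median was 0.09, and without TrspFF replicate 1 that of the 16 choroid plexus genes turned from -0.22 to 0.01. Prl and Gh, the defining pituitary hormones, were not above background, while Cga, the common hormone subunit, lay at -1.78 and -5.88 in TrspFF and was well above background on neither Trsp-RIPKO array.

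Medians of the lists of the main brain cells ran from -0.14 to 0.04. The median was -0.04 for 14 general neuron genes, -0.09 for 13 astrocyte genes, -0.14 for 13 microglia genes and 0.04 for 14 oligodendrocyte genes. Each of these lists had 0 calls, beside 1.66% of all genes. Of the 13 astrocyte genes 10 were negative, and 6 lay lower and 1 higher without overlap, beside 30.2% and 28% of all genes. Of the 13 microglia genes 7 were negative, and 3 lay lower and 5 higher without overlap. Syn1, a synaptic vesicle protein, lay at 4.64 and 4.66 against 5.09 and 5.05 (0.42, SE 0.08, adjusted p = 0.079), Slc4a4, an astrocyte bicarbonate transporter, at 2.27 and 1.86 against 1.31 and 1.03 (-0.89, SE 0.19, and -0.81 and -2.68 on its other probes), and Ermn, a cytoskeletal protein of myelin, at 4.91 and 5.07 against 4.28 and 4.05 (-0.82, SE 0.16, adjusted p = 0.085). The other probe of Ermn had a difference of -0.07 with overlapping groups, and 8 of the 14 oligodendrocyte genes were positive. Of the beta-cell list Ins2, one of the mouse insulin genes, was well above background at -1.94 and -2.41 against -2.44 and -2.32 (-0.20, SE 0.18), while Iapp, Pdx1 and Slc2a2 were not above background. Of 10 blood-cell genes 6 were positive and 4 negative, with a median of 0.11 and 0 calls. Of these, Alas2, the haem synthesis enzyme of red cells, differed by 0.73 (SE 0.11, adjusted p = 0.053), and the neutrophil genes S100a8 and S100a9 by -1.10 (SE 0.325) and -1.07 (SE 0.28). Another neutrophil gene, Camp, differed by -0.12, and the 6 white cell and platelet genes had 3 positive and 3 negative members.

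**Figure D5:**
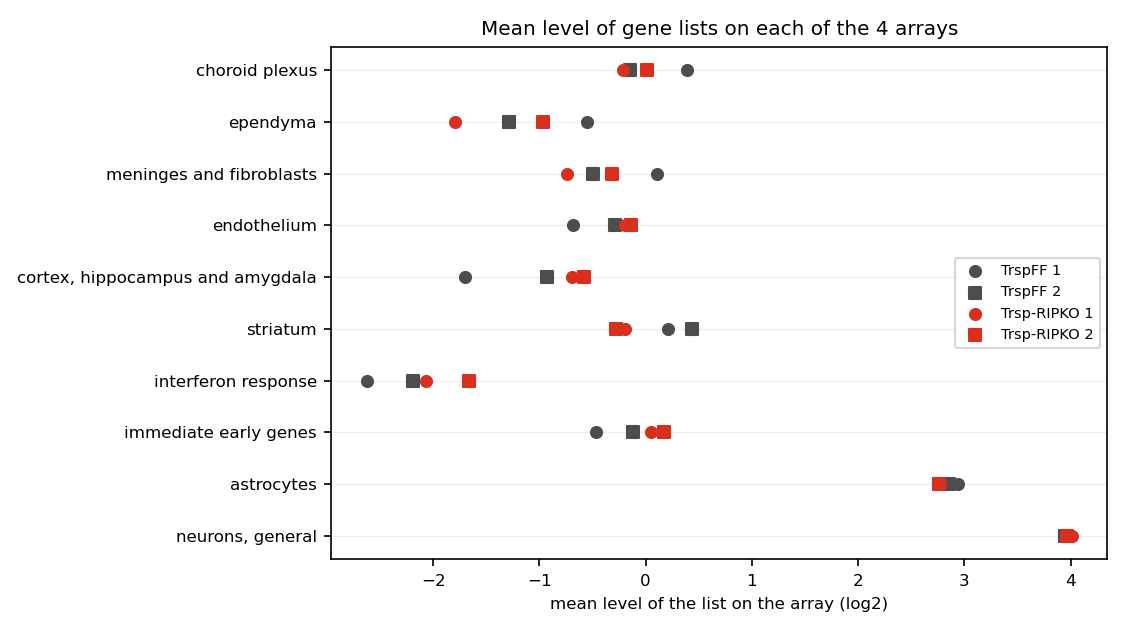
The horizontal axis gives the mean level (log2) of 10 gene lists on each array, with TrspFF in grey, Trsp-RIPKO in red, replicate 1 as circles and replicate 2 as squares. TrspFF replicate 1 stands apart from the other 3 arrays for cortex, hippocampus and amygdala (-1.70 against -0.93 to -0.58) and endothelium, while both TrspFF arrays lie above both Trsp-RIPKO arrays for striatum.

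Some of the largest differences missed the threshold, with arrays of a group apart. Lhx8, a factor of forebrain cholinergic neurons, lay at -1.76 and -2.19 in TrspFF and -4.26 and -6.51 in Trsp-RIPKO (-3.41, SE 0.79, adjusted p = 0.11). Pom121l2, a nucleoporin relative, lay at -2.68 and -1.99 against -4.87 and -4.65 (-2.42, SE 0.37, adjusted p = 0.057). Sln, an inhibitor of the calcium pump of muscle, lay at -1.18 and -2.61 against -3.53 and -4.79, and F2, the prothrombin gene, at -2.96 and -4.40 against -5.55 and -5.87. On the higher side, the chemokine gene Ccl21a lay at -1.21 and 2.38 in TrspFF, 2.83 and 3.07 in Trsp-RIPKO and -3.18 and -1.80 in Trsp-Ins1KO (2.37, SE 1.24, adjusted p = 0.31). Pnp2, a purine nucleoside phosphorylase, lay at -5.85 and -3.11, then -2.86 and -1.99, then -7.34 and -8.76, and H2-DMb1, an MHC class II chaperone, at -5.76 and -2.47, then -2.36 and -2.24, then -6.65 and -6.58. In these 3 genes TrspFF replicate 2 lay nearer to the Trsp-RIPKO arrays than to TrspFF replicate 1.

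The direct contrast of the knockouts, which lie on the same slide, gave 4 genes of 22863 (0.0175%), all lower in Trsp-RIPKO, and 0 higher by limma, with 4215 genes at an unadjusted p under 0.05. When only the arrays of both knockouts entered the fit, 156 genes were lower and 162 higher. Of the 379 genes past the threshold against TrspFF, 1 was also past it here: Slpi, a secreted inhibitor of leukocyte proteases, named after its values were seen. Slpi lay at -4.70 and -4.60 in TrspFF, -5.83 and -5.97 in Trsp-RIPKO and -3.49 and -3.67 in Trsp-Ins1KO (Trsp-RIPKO minus TrspFF -1.25, adjusted p = 0.024, and minus Trsp-Ins1KO -2.32, SE 0.11, adjusted p = 0.032). Sdc4, a heparan sulfate proteoglycan and also named after its values were seen, lay at -1.60 and -1.80, then -2.14 and -2.28, then 0.56 and 0.53 (minus Trsp-Ins1KO -2.75, SE 0.11, adjusted p = 0.019). The other 2, Tmem154 and Ttll2, were well above background on neither Trsp-RIPKO array.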

How the data were processed

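The authors deposited Agilent 1-colour scanner files whose processed-signal intensity was made with Feature Extraction 10.7.3.1, per the file headers, and a value table of log2 values centred per probe, with no scaling stated. Groups follow the scanner-file labels. The processed signal was taken as log2 minus the 75th percentile of non-control probes of its array. A probe was kept where, in some genotype, each array had it well above background, and the brightest kept probe stood for a gene. All 6 arrays were fitted with 1 coefficient per genotype in limma 3.58.1 (R 4.3.3), with Benjamini-Hochberg adjustment over 22863 genes and a threshold of 0.05. The script was tested on simulated data. With 2 arrays a group, their number limits the precision.

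Genes named are the largest falls and rises past the threshold with a usual symbol, the brightest of those, the largest differences measured on all 4 arrays, the members of each list past the threshold or with the smallest p and its core members, the selenoproteins, and families of genes past the threshold. Members and lists were chosen with earlier results of these data known, and a few genes, as the text says, after their values were seen. Alternatives covered scaling, background correction, the value table, filters, probe averaging, the variance model, a replicate block and left-out arrays. Leaving out the dim area was chosen after seeing the data.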

Additional observations from a re-analysis of the deposited data

How the results depend on the processing

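Falls and rises against TrspFF (357 and 22) became 264 and 34 with quantile normalization, 336 and 62 with normexp, 335 and 19 with averaged probes, 358 and 22 with the value table, 470 and 56 for probes well above background on all 6 arrays, 592 and 193 with a trended, robust variance, and 213 and 5 at 1 log2 or more. Median scaling gave 208 and 16 and moved the median of all genes by 0.11, so list medians nearer to 0 than this have no settled sign. No filter gave 0 and 0 (5016 genes at an unadjusted p under 0.05), as did only the groups compared (4776) in limma. With the replicate block there were 0 and 0 (5456 at an unadjusted p under 0.05). The labels do not say whether the replicate numbers pair the arrays. Deviations of arrays with the same number had r of -0.03 (Trsp-RIPKO) and 0.09 (Trsp-Ins1KO) with TrspFF. With 2 arrays a group these r cannot settle whether the numbers pair the arrays. Leaving out an array gave 0 to 356 falls and 0 to 139 rises; where 1 array of a group remains, it is assumed to vary like the others. Against Trsp-Ins1KO, 4 lower and 0 higher became 1 lower with normexp, without a filter and with the trended variance, 2 lower for probes measured on all 6 arrays, 0 with the replicate block, 156 lower and 162 higher with only both knockouts, and 0 to 156 lower and 0 to 162 higher with an array left out. Of the 379 genes, 378 kept their sign with normexp and with averaged probes, where Iigp1 was 0.19. The Naa38 difference was -12.35 without Trsp-RIPKO replicate 1, past the threshold, and 0.23 without replicate 2. The cause of these changes was not tested. Signal over background limits the 36 falls and 6 rises given as bounds.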
